A study of Mus musculus with 3 samples.

Results

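Replication-dependent histone genes were examined in polyA RNA of KO-actin MEFs. KO-actin MEFs are mouse embryonic fibroblasts in which the gene of β-actin is knocked out and an NLS-tagged β-actin, bearing a signal for import into the nucleus, is expressed. All genes whose symbol starts with Hist1h, Hist2h, Hist3h or Hist4h were taken, except those ending in -ps, which gave 67 of the 46603 genes in the count table. RNA-Seq was available for 3 libraries, which all belong to this 1 condition, so conditions could not be compared. The labels do not say whether the libraries came from separate cultures, and the spread between them may therefore be technical. How many clones these cells stand for was not given in the sources used here.

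Histone proteins wrap DNA into nucleosomes. A nucleosome core holds H2A, H2B, H3 and H4, and the linker histone H1 binds where DNA enters and leaves it. Cells make most of these proteins during S phase from intronless genes that lie in clusters and exist in many near-identical copies. Their mRNAs are the known exception among mRNAs of animal cells: the 3′ end is normally formed by cutting after a conserved stem-loop, which stem-loop-binding protein recognizes, and no poly(A) tail is added. Variant histones such as H3.3 and H2A.Z, by contrast, are made throughout the cell cycle from genes with introns and polyadenylated mRNAs.

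The members comprised 6 H1, 20 H2A, 16 H2B, 12 H3 and 13 H4 genes. The Hist1 cluster on mouse chromosome 13 held 54 of them, the Hist2 cluster on chromosome 3 held 10, Hist3 on chromosome 11 held 2, and Hist4h4 lay alone on chromosome 6. Of the members, 2 (Hist1h2al and Hist1h2aj) are annotated as pseudogenes in GENCODE release M21 on GRCm38, although their symbols do not carry the -ps ending. A further 2 genes with such symbols in that release were not analysed here.

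The stem-loops of the members are shown because they are the feature that sets the normal 3′ end of these mRNAs apart. A stem of 6 bases starting with GG and ending with CC, closed over a 4-base loop of TTTN with G-T pairs allowed, was searched in the annotated GENCODE transcripts. It was found in 42 of 67 members (62.7%) and in 130 of 21875 other protein-coding genes (0.594%). The examples below are written 5′ to 3′ in the sense strand, with the stem and loop in capitals and up to 5 bases on either side.
Hist1h1c: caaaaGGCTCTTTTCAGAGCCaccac
Hist1h2ap: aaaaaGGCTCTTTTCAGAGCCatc
Hist2h2ac: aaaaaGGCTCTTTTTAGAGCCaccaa
Hist1h3e: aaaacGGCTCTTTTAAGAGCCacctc
Hist1h4i: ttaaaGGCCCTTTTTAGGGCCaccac
Hist1h4j: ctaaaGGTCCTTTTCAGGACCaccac
Hist1h1c and Hist1h2ap were the 2 most abundant members, and they carried the same 16 stem and loop bases. All stem-loops found in H4 genes differed from those of the other types. Of the 11 H4 genes with a match, 9 had the stem opening GGCCCT, as in Hist1h4i, and 2 had GGTCCT, as in Hist1h4j. None of the 31 matching H1, H2A, H2B and H3 genes had either stem, and all 31 opened with GGCTCT. The loop was TTTC in 24 of those 31 genes, TTTA in 6, as in Hist1h3e, and TTTT in Hist2h2ac.

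Library totals were 44383636 to 49932446 counts, and the totals were scaled by the trimmed mean of M-values (TMM) and the values given as CPM, the counts per 1000000 scaled counts. Actb, the gene targeted in these cells, had 1085 ± 25.9 CPM (SD, n = 3), and its counts do not separate the NLS-tagged copy from the original locus. All 12 fibroblast markers lay above 3 counts in every library, from Dcn at 0.152 CPM and Thy1 at 0.836 CPM to Fn1 at 3578, Col1a1 at 4058 and Vim at 4563 CPM. Of 14 markers of other cell types 5 did so, led by the macrophage gene Cd68 at 8.57 CPM, the neuronal gene Snap25 at 1.89 CPM and Nanog at 0.580 CPM, with Ptprc and Epcam lowest at 0.00676 CPM. Replicate 2 stood apart, since the biological coefficient of variation estimated by edgeR was 5.25% over all libraries and 3.04% without it.

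Transcripts of replication-dependent histone genes made up a very small part of the libraries. Counts on them numbered 3698, 4155 and 3304 in replicates 1 to 3. These counts were 0.00741%, 0.00838% and 0.00744% of the library totals, with a mean of 0.00774% ± 0.000551 (SD, n = 3). The summed level was 74.1, 84.3 and 73.9 CPM, which is 77.5 ± 5.94 CPM. Replicate 2 was the highest, and the remaining libraries were nearly equal.

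A gene was taken as detected when it had more than 3 counts in every library, 3 counts being the largest true level at which a count of 0 remains plausible. This floor corresponds to 0.0601, 0.0609 and 0.0671 CPM in replicates 1 to 3 and covers counting error only. By this measure 31 of 67 members (46.3%) were detected, compared with 15208 of all 46603 genes (32.6%). A mean of at least 1 CPM was reached by 6 members, whereas 12106 of all genes (25.98%) reached it. The median over all 67 members, detected or not, was 0.100 CPM. Thus, most detected members had a mean between 0.0836 CPM, the lowest among them, and 1 CPM, and few were abundant.

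**Figure D1:**
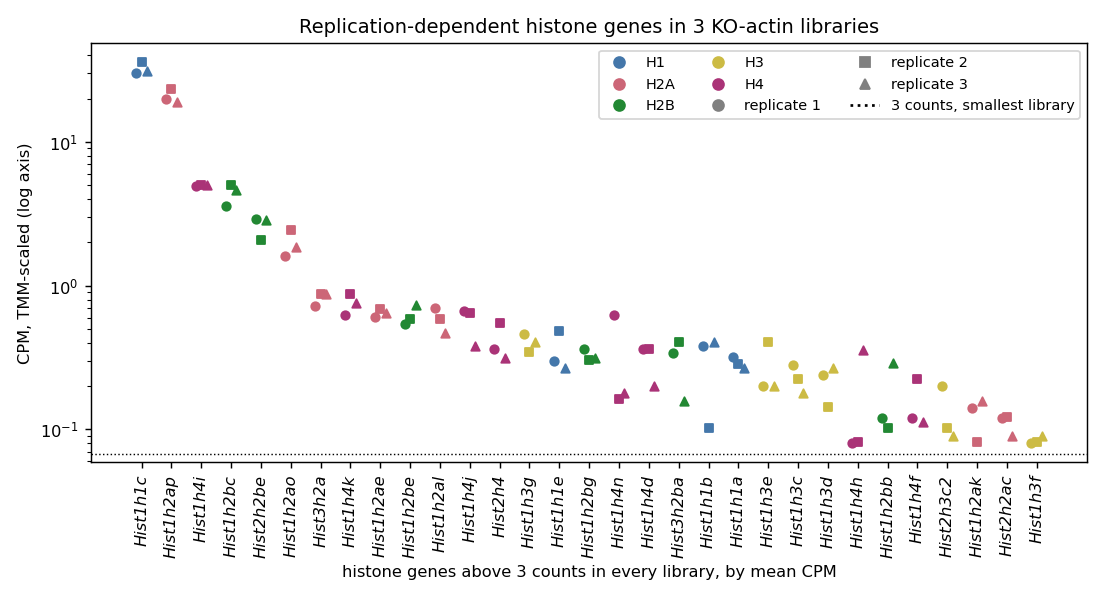
Level of the 31 detected histone genes in each library, in TMM-scaled CPM on a log axis, with the colour giving the histone type and the symbol the replicate. The 2 highest genes, Hist1h1c and Hist1h2ap, stand above the rest, and most genes lie below 1 CPM. The dotted line marks 3 counts in the smallest library.

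The 2 highest members carried 68.4% ± 1.46 (SD, n = 3) of the summed member CPM, and the 6 highest carried 86.5% ± 1.04. Even so, Hist1h1c ranked 6409 and Hist1h2ap ranked 7713 among all genes by mean CPM.

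Among linker histones, Hist1h1c, which encodes the H1 subtype also named H1.2, was by far the most abundant. It received 1509, 1761 and 1382 counts, or 30.2, 35.7 and 30.9 CPM, with a mean of 32.3 ± 3.00 CPM (SD, n = 3). It is a single-exon gene at chr13:23738808-23740367 on the plus strand, and its annotated transcript runs 840 bases past the stem-loop and has a poly(A) signal in its last 50 bases. Of the remaining H1 genes, Hist1h1e had 0.301, 0.487 and 0.269 CPM, Hist1h1a had 0.321, 0.284 and 0.269 CPM, and Hist1h1b had 0.381, 0.101 and 0.403 CPM. For Hist1h1e, 25.7% of the exonic bases lie on the same strand in exons of other genes, Hist1h2be among them, so reads there could belong to any of them. All 3 libraries of Hist1h1c lay above those of every other H1 gene. Hist1h1d had 25, 13 and 3 counts and was not counted as detected because of replicate 3. Hist1h1t, the testis H1, had no counts.

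H2A genes were led by Hist1h2ap, at chr13:21833026-21833507 on the minus strand. This gene received 999, 1152 and 845 counts, or 20.0, 23.4 and 18.9 CPM. Its mean was 20.8 ± 2.33 CPM (SD, n = 3), below that of Hist1h1c in every library. Per kilobase of exon the order was the opposite, since Hist1h2ap had 43.1 ± 4.82 CPM per kilobase and Hist1h1c had 20.7 ± 1.92. Hist1h2ao, its nearest relative in sequence, had 1.60, 2.46 and 1.86 CPM. Next came Hist3h2a at 0.721, 0.873 and 0.873 CPM, Hist1h2ae at 0.601, 0.690 and 0.649 CPM, and Hist1h2al at 0.701, 0.588 and 0.470 CPM. On the CPM scale Hist3h2a lay above the other 2 genes in every library, whereas Hist1h2ae and Hist1h2al overlapped. Its lead over Hist1h2al in replicate 1 was 36 counts to 35. In CPM per kilobase Hist3h2a was the lowest of these genes, at 0.383 compared with 0.919 for Hist1h2ae and 1.73 for Hist1h2al. Of the exonic bases of Hist3h2a, 33.0% lie on the same strand in exons of Trim17, so reads there could belong to either gene.

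The H2B genes with the highest levels were Hist1h2bc and Hist2h2be. Hist1h2bc, at chr13:23684199-23692908 on the plus strand, had 180, 249 and 207 counts, or 3.61, 5.05 and 4.63 CPM (4.43 ± 0.744, SD, n = 3). Hist2h2be, at chr3:96221119-96223738 on the plus strand, had 145, 102 and 127 counts, or 2.91, 2.07 and 2.84 CPM (2.61 ± 0.465, SD, n = 3). Hist1h2bc was higher than Hist2h2be in each library, and the values of both genes did not overlap. Neither annotated transcript held a stem-loop match. That of Hist1h2bc is spliced from 2 exons, and that of Hist2h2be has a 3′ UTR of 2192 bases ending with a poly(A) signal. Hist1h2be had 0.541, 0.588 and 0.739 CPM. Its exons share 11.2% of their bases on the same strand with other genes, among them Hist1h1e.

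Of the H4 genes 8 of 13 were detected, compared with 4 of 6 H1, 7 of 20 H2A, 6 of 16 H2B and 6 of 12 H3 genes. Hist1h4i, at chr13:22040636-22041362 on the minus strand, had 245, 248 and 224 counts. Its 4.91, 5.03 and 5.01 CPM gave a mean of 4.98 ± 0.0666 CPM (SD, n = 3), the smallest relative spread among the members tested. Hist1h4k followed at 0.621, 0.873 and 0.761 CPM, Hist1h4j at 0.661, 0.649 and 0.380 CPM, and Hist2h4 at 0.361, 0.548 and 0.313 CPM. Hist1h4n was uneven, with 31 counts in replicate 1 and 8 in each of the others, and was noted after its values were seen.

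H3 genes had the lowest summed CPM of the 5 types. No H3 gene reached a mean of 1 CPM, and 6 of 12 were detected. Hist1h3g was the highest, at 0.461, 0.345 and 0.403 CPM, followed by Hist1h3e at 0.200, 0.406 and 0.201 CPM. The values of these 2 genes overlapped.

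Summed by type, H1 genes had 31.7, 36.9 and 31.9 CPM, and H2A genes had 24.2, 28.7 and 23.6 CPM. H2B genes had 8.42, 8.77 and 9.36 CPM, H4 genes had 7.89, 8.30 and 7.45 CPM, and H3 genes had 1.88, 1.70 and 1.59 CPM. The order of H1, H2A, H2B, H4 and H3 held in each library. Their mean shares of the member CPM were 43.3%, 32.9%, 11.5%, 10.2% and 2.24% in that order. Since H1 transcripts are longer, the shares changed on the scale of CPM per kilobase of exon. There H2A held 54.1%, H1 22.8%, H4 13.0%, H2B 7.40% and H3 2.80%. Core histones enter the nucleosome in equal numbers, as is known from its structure, but neither scale showed equal levels among their genes in polyA RNA.

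By cluster, Hist1 had 69.4, 80.2 and 69.4 CPM, or 94.2% of the member CPM. Hist2 had 3.59, 2.84 and 3.36 CPM, Hist3 had 1.06, 1.28 and 1.03 CPM, and Hist4h4 had between 1 and 6 counts per library. Within Hist1, the 23 members at chr13:21715763-22043676 summed to 30.7 ± 2.53 CPM (SD, n = 3) and the 30 members at chr13:23531050-23934851 to 41.8 ± 3.84 CPM. The order was the opposite per kilobase of exon, where the former held 63.4% and the latter 32.1% of the summed member level. In the former group 8 of 23 members were detected, and in the latter 16 of 30. Both sums rested mainly on 1 gene each, Hist1h2ap and Hist1h1c. Hist1h2al lies apart from both groups, at chr13:51202727-51203065.

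**Figure D2:**
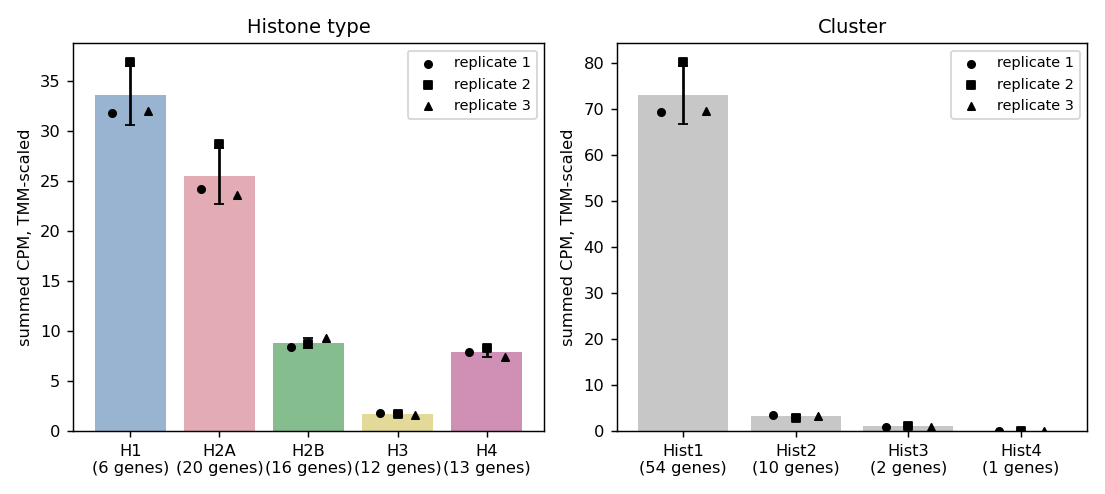
Summed TMM-scaled CPM of the histone genes by type (left) and by cluster (right). Bars give the mean of 3 libraries, error bars the SD and symbols the libraries. H1 and H2A exceed the other types in every library, and Hist1 holds nearly all of the signal.

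Next, the annotated ends of the transcripts were compared with the levels, since a transcript that runs past the stem-loop can end at a poly(A) site. The annotated transcripts of 21 members ran more than 100 bases past the stem-loop, and those of another 21 ended within 100 bases of it. No stem-loop was found in 25 members. Of these, 15 have no annotated 3′ UTR, the 2 pseudogenes among them, and 10 have a 3′ UTR of 1 to 2192 bases without a match. Members running past the stem-loop were detected in 15 of 21 cases (71.4%), and those ending near it in 8 of 21 (38.1%). The fractions were 4 of 10 for those with a 3′ UTR without a match and 4 of 15 for those without a 3′ UTR. The members running past the stem-loop held 55.2% ± 0.381 (SD, n = 3) of the member CPM.

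The levels of the groups were then compared with and without regard to transcript length. The median was 0.301 CPM for members running past the stem-loop and 0.0568 CPM for those ending near it, but their median exonic lengths were 1249 and 482 bases. On the scale of CPM per kilobase, the medians were 0.182 and 0.120, and 0.212 for members without an annotated 3′ UTR. The ratio of the former medians was 1.52 per kilobase and 5.30 on the CPM scale, and it turned to 0.872 per kilobase when 300 bases were taken as the limit. With that limit 12 of 17 members running past and 11 of 25 ending near the stem-loop were detected. With the limit of 100 bases, the members running past held 33.8% of the summed level per kilobase, and those ending near the stem-loop held 53.1%, most of it on Hist1h2ap. Longer transcripts collect more counts at the same abundance, and the part of length in the number of detected members was not tested. Most members ending near the stem-loop also shared over 50% of their 50-base windows with other genes, as described below, whereas few running past it did. The part of shared sequence in the number of detected members was not tested either. Hist1h2ap itself is annotated as ending 3 bases after the stem-loop, with no poly(A) signal in its last 50 bases. Over all members, such a signal (AATAAA or ATTAAA) was present in 17, of which 10 were detected, compared with 21 of the 50 members without it. These 17 held 56.4% ± 1.09 (SD, n = 3) of the member CPM, and 33.6% of the summed level per kilobase.

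**Figure D3:**
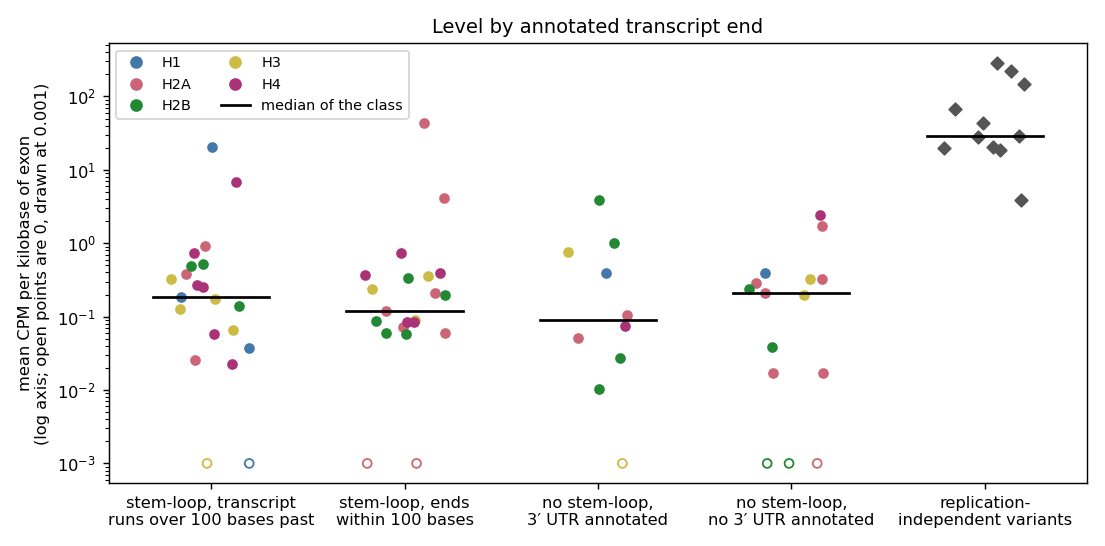
Mean CPM per kilobase of exon (log axis) of each histone gene, grouped by its annotated transcript end, beside the 11 replication-independent variants. Lines give the median of each group and open points are genes at 0. The 4 groups of members overlap, and the variants lie above most of them.

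Replication-independent variants provide a reference mainly from polyadenylated mRNAs. H2afx, whose transcript also holds a stem-loop and which is described below, is included in the sums and in the ratios for all variants and for H2A. All 11 variants were detected, and together they summed to 2151 ± 96.4 CPM (SD, n = 3). H3f3b and H3f3a, which both encode H3.3, had 839 ± 11.3 and 96.9 ± 6.48 CPM. H1f0, the linker histone of resting cells, had 455 ± 38.3 CPM, and H1fx had 35.4 ± 8.42 CPM. Among H2A variants, H2afz had 262 ± 3.30 CPM and H2afv 71.8 ± 6.62 CPM, both encoding H2A.Z. H2afy and H2afy2, which encode macroH2A, had 136 ± 7.44 and 8.41 ± 0.804 CPM, and H2afj had 33.7 ± 6.40 CPM. The centromeric H3 gene Cenpa had 119 ± 2.55 CPM.

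Per kilobase, the summed variants exceeded the summed members 9.20-fold, 8.94-fold and 9.63-fold in the 3 libraries. The mean was 9.26-fold ± 0.345 (SD, n = 3), or 3.21 on the log2 scale, and the direction was the same in 3 of 3 libraries. The exact permutation test (two-sided, sign changes) gave p = 0.25, which is the smallest value that 3 libraries allow. On the CPM scale the ratio was 27.8-fold. By type, the ratio per kilobase was 11.5 ± 0.333 for H1, 5.85 ± 0.292 for H2A and 125 ± 12.8 for H3. By mean level, H3f3b, H1f0, H2afz and H2afx each lay above every member on this scale, and H2afv at 43.9 ± 4.05 CPM per kilobase differed from Hist1h2ap by less than the spread between libraries.

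H2afx, the variant phosphorylated at DNA breaks, is known to yield both stem-loop and polyadenylated mRNA. Its annotated transcript held a stem-loop and ran 822 bases past it to a poly(A) signal. It had 90.9, 107 and 84.2 CPM. Per kilobase its level was 0.711 ± 0.0318 (SD, n = 3) of that of all 67 members together. This gene thus resembled Hist1h1c in the layout of its transcript end, at a level per kilobase of 68.0 compared with 20.7.

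Near-identical copies limit what counts per gene can show. Each member was cut into all 50-base windows of its transcripts, and a window was called shared when it occurred in a transcript of another gene on either strand. More than 50% of windows were shared in 36 members. Of the members, 5 had every window shared, namely Hist2h2aa1, Hist2h2aa2, Hist2h2bb, Hist2h3b and Hist2h3c1, and all 5 had 0 counts in every library. All exonic bases of these 5 genes also lie within exons of another annotated gene, on the same strand for Hist2h3c1 and on the opposite strand for the other 4. Of those 4, Hist2h2aa1 and Hist2h2bb also overlap another gene on their own strand, over 90.3% and 59.3% of their exonic bases. The remaining 3 members at 0 were Hist1h1t, Hist1h2aa and Hist1h2ba, whose shared windows made up 0 to 38.2%, and which are known as testis histone genes. A count of 0 allows up to 3 counts per library. How reads with several matches were counted was not given in the sources used here, so counts at genes with shared windows are uncertain.

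Hist1h2ap and Hist1h2ao had 93.1% and 93.5% of windows shared, mostly with each other and with other H2A genes, and only 30 and 28 windows of their own. Their levels of 20.8 and 1.97 CPM can therefore not be assigned to these copies with confidence. By contrast, Hist2h2be had no shared window, Hist1h1c had 8.54% shared, Hist1h4i 28.9% and Hist1h2bc 30.6%. Members with at most 25% of windows shared were detected in 10 of 16 cases and held 49.6% ± 0.397 (SD, n = 3) of the member CPM. Those with over 80% but under 100% were detected in 3 of 15 cases and held 30.6% ± 1.08. Per kilobase the former held 25.9% and the latter 51.8%, most of it on Hist1h2ap. Detection did not fall steadily with sharing. It was 11 of 15 for members with over 25 to 50% shared and 7 of 16 for those with over 50 to 80%.

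**Figure D4:**
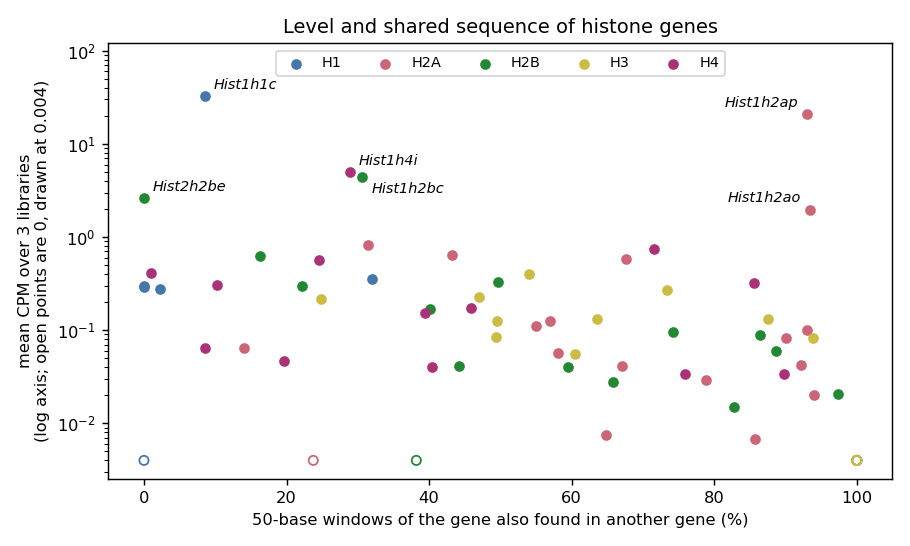
Mean CPM (log axis) of each of the 67 histone genes against the percentage of its 50-base windows that also occur in another gene. Open points are genes at 0, and 5 of them coincide at 100%. Of the 6 labelled genes with at least 1 CPM, Hist1h2ap and Hist1h2ao lie above 90% shared and the other 4 below 31%.

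Many H2A and H2B genes lie head to head and share the sequence between their starts. There were 12 such neighbours with starts at most 500 bases apart. The intervals of the pairs holding Hist2h2be, Hist1h2bc and Hist1h2ap are shown because the genes on either side of them differed by the largest numbers of counts. They are taken from RefSeq promoter sequences on GRCm38.p6 and written 5′ to 3′ on the minus strand, towards the H2A gene. Capitals mark the octamer ATTTGCAT, the TATA box TATAAA and CCAAT boxes, on either strand. For Hist1h2ap the sequence stops short of the start of Hist1h2br.
Hist2h2be and Hist2h2ac, chr3:96220881-96221118: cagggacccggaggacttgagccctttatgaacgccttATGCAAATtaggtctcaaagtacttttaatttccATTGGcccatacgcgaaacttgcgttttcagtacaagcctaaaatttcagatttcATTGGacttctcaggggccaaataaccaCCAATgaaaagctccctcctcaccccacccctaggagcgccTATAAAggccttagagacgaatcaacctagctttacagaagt
Hist1h2bc and Hist1h2ac, chr13:23683949-23684198: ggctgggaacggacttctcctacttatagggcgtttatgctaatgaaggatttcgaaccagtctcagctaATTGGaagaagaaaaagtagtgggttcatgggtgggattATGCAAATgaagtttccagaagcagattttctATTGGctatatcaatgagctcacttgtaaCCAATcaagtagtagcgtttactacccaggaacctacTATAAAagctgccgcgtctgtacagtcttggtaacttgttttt
Hist1h2br and Hist1h2ap, chr13:21833508-21833725: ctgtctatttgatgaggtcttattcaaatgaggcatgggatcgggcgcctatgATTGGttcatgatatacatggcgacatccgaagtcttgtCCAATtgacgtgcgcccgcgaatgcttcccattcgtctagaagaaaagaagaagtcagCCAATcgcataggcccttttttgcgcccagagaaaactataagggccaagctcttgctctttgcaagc
The first 2 intervals each held an octamer, a TATA box towards the H2A gene and 3 CCAAT boxes, and the interval of Hist1h2ap held 3 CCAAT boxes and neither of the other motifs.

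A promoter of 300 bases (250 before to 50 after the start) could be matched to 59 of the 67 members. The octamer was present in 12 of them (20.3%) and in 1.75% of all 32544 promoters in the table. All 12 belonged to H2A or H2B genes, with 7 of 18 H2A and 5 of 13 H2B promoters, and it was found in 0 of 28 promoters of the other types. Promoters of head-to-head neighbours are not separate, since both can hold the same site. The same octamer was counted in both promoters for Hist1h2aa and Hist1h2ba, Hist1h2ae and Hist1h2bg, and Hist1h2ah and Hist1h2bk. The TATA box occurred in 35 of 59 (59.3%) and in 13.6% of all promoters. CCAAT, which is short enough to match often, occurred in 50 of 59 (84.7%) and in 37.4% of all promoters. These matches are descriptions of the letters in the windows and were not tested for binding.

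The counts of head-to-head neighbours were often very unequal. Hist1h2ap had 2996 counts over the 3 libraries and Hist1h2br had 8, so that 99.7% of the counts lay on Hist1h2ap (95% exact binomial interval 99.5 to 99.9%, counting error only). Hist1h2bc had 636 counts and Hist1h2ac had 9, or 98.6% on Hist1h2bc (97.4 to 99.4%). Hist2h2be had 374 counts and Hist2h2ac had 16, or 95.9% on Hist2h2be (93.4 to 97.6%). These shares take no account of length, and the exons of Hist2h2be and Hist2h2ac cover 2620 and 520 bases. In CPM per kilobase, these 2 genes were closer, at 0.995 and 0.212. On that scale Hist1h2ap had 43.1 and Hist1h2br 0.0270, and Hist1h2bc had 3.83 and Hist1h2ac 0.0256. The gene with more counts was the H2A gene for Hist1h2ap and the H2B gene for Hist1h2bc and Hist2h2be, and it was the same gene in every library.

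For Hist1h2ao and Hist1h2bq the counts were 284 and 3. Hist1h2ae and Hist1h2bg were closer, with 30, 34 and 29 counts against 18, 15 and 14, or 66.4% on Hist1h2ae (58.0 to 74.2%). Both of these annotated transcripts run past the stem-loop. The remaining neighbours had at most 31 counts together, and Hist1h2aa and Hist1h2ba had none. Shared windows made up 88.7% of Hist1h2br and 97.3% of Hist1h2bq, so low counts there may also depend on how shared reads were counted, which was not tested.

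**Figure D5:**
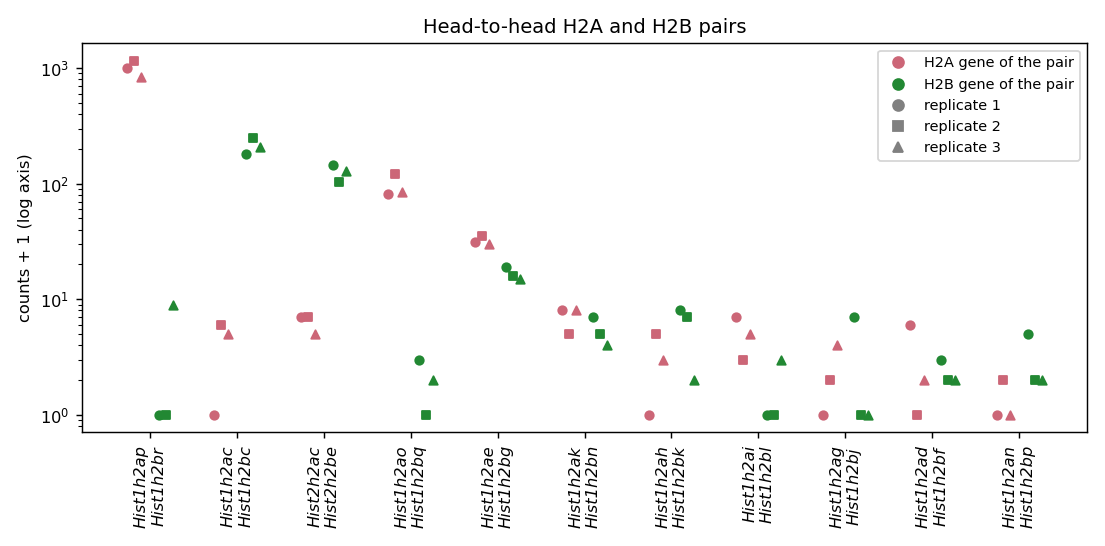
Counts plus 1 (log axis) of the H2A gene (red) and the H2B gene (green) of 11 head-to-head neighbours in each library; the neighbours with no counts are left out. The genes of the 5 leftmost pairs do not overlap between libraries, and those further right lie close together at low counts.

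Finally, variation between the libraries was compared with counting error, using a chi-square test on every gene with at least 10 counts in each library. Of 17 members tested, 5 (29.4%) passed an adjusted p of 0.05, and 43.9% of all 13814 genes tested did so. At this minimum the share of members was not above that of all genes. With at least 100 counts required in each library, 4 of 5 members and 52.0% of all 11059 genes tested passed, so the order of the shares depended on the minimum. These calls concern counting error alone, and with the edgeR common dispersion of the libraries added, 0 of the 17 members and 0.731% of all genes passed. Adjusted p was 9.14e-06 for Hist1h1c, 2.65e-05 for Hist1h2ap, 0.00677 for Hist1h2bc, 0.0225 for Hist1h2ao and 0.0409 for Hist2h2be by this test with Benjamini-Hochberg adjustment. For Hist1h4i it was 0.967. Leaving out a library changed this count. Without replicate 2, 0 of 19 members passed and 12.5% of all genes did. Without replicate 1, 2 of 17 members passed (Hist1h1c and Hist1h2ap) and 33.1% of all genes did, and without replicate 3 the same 5 of 22 members tested passed and 34.0% of all genes did.

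Replicate 2 was the highest library for 9 of the 17 tested members, and for 39.7% of all genes tested. Relative to the mean of the others, it was higher by 0.22 (log2) for Hist1h1c, 0.26 for Hist1h2ap, 0.31 for Hist1h2bc and 0.51 for Hist1h2ao, and lower for Hist2h2be (-0.47). The median was 0.14 for tested members. This deviation also moved with GC content over all genes, with medians of -0.10 below 45% GC, 0.01 from 45% to 55% and 0.11 above that. The GC content was 64.5% for Hist1h2ap, 64.2% for Hist1h2ao, 55.1% for Hist1h1c, 45.9% for Hist1h2bc and 45.3% for Hist2h2be. The part of GC content in the differences of these genes was not tested.

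The genes that act on histone mRNAs and proteins were present throughout. All 25 listed genes of 3′ end processing were detected, and 17 of them varied between libraries beyond counting error, where 43.9% of all genes tested did. Slbp, which encodes stem-loop-binding protein, had 130, 121 and 133 CPM, and its mean of 128 ± 6.36 CPM (SD, n = 3) was above that of every member. The highest in this list were the Sm protein gene Snrpb at 388 CPM, Srrt at 311 CPM and Cpsf1 at 244 CPM. Lsm10 and Lsm11, components of the U7 particle that directs the cut, had 20.2 and 28.5 CPM, and Zfp473 was lowest at 0.454 CPM. All 16 genes of histone mRNA decay were detected, from the exonuclease gene Dis3l2 at 10.3 CPM and the decapping gene Dcp2 at 26.9 CPM to Exosc10 at 217, Lsm4 at 219 and the helicase gene Upf1 at 256 CPM, and 7 of 16 varied, a share close to the 43.9% of all genes.

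Histone chaperones were detected in 22 of 22 cases, from the H3.3 chaperone genes Hira at 22.4 CPM and Ubn2 at 30.5 CPM to Rbbp7 at 450, Mcm2 at 469 and the FACT subunit gene Ssrp1 at 524 CPM, and 16 of 22 varied by this test, compared with 43.9% of all genes. Genes of S phase were detected in 16 of 16 cases, from E2f2 at 10.6 CPM and Ccne1 at 28.2 CPM to Mcm3 at 398, Pcna at 419 and Mcm5 at 429 CPM, and 11 of 16 varied, again beside 43.9% of all genes. That share was 52.0% where at least 100 counts were required in each library. Whether the genes of processing, decay, chaperones or S phase varied more than other genes of like counts was not tested. The median of the S phase genes was 152 CPM, and that of the histone genes was 0.100 CPM. These medians take no account of length, and 36 histone genes had over 50% of windows shared with other genes. They are therefore not on an equal footing.

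Non-polyadenylated RNAs other than histone mRNAs were also scarce. Of 21 such genes in the table, 5 were detected and 9 had no counts. Their sum was 2.74, 2.35 and 3.72 CPM, and Rn7sk, the small nuclear RNA that holds P-TEFb inactive, accounted for 1.73 ± 0.560 CPM (SD, n = 3). Terc, the RNA of telomerase, had 0.337 CPM and Rmrp had 0.195 CPM, and Rprl2 and Vaultrc5 were among those without counts. Many of these RNAs are short or come in several copies, so that their counts depend on size selection and on the handling of reads with several matches, and neither was tested.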

How the data were processed

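Polyadenylated RNA of 3 KO-actin libraries was used. The authors deposited raw read counts per Ensembl gene without normalization. Per the labels, the submitters' processing notes name Trimmomatic, FastQC, HISAT2, HTSeq, mm10 and GRCm38; versions, strand and the treatment of multiply mapped reads were not given in the sources used here. The members and gene lists were chosen with earlier results of these data known.

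Symbols were matched by identifier for 46005 of 46603 genes. Counts were scaled by TMM (edgeR 4.0.16, R 4.3.3). Alternatives were DESeq2 1.42.0 size factors and library totals. Lengths, ends and shared windows came from GENCODE M21 on GRCm38, and promoters from RefSeq (GRCm38.p6), matched by synonym, strand and start. Lengths are those of the union of exons. Variation was tested by a chi-square (2 degrees of freedom) on genes reaching 10 counts in each of the 3 libraries, with Benjamini-Hochberg adjustment over all of them. On simulated counts of 13814 genes, 126 of 200 genes changed 1.2-fold in replicate 2 were recovered, 154 at 1.5-fold and 182 at 2-fold. The simulation held counting error only, without the dispersion of the real libraries. Its changed genes were drawn from all tested genes, so recovery at the low counts of most members was not measured.

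Members with a mean of at least 1 CPM, members whose variation passed, the highest of each type and cluster, and members without counts were named. Of each list the 3 highest, the 2 lowest, Slbp and the variants were named, and further genes where a group turned on them. Totals were 44383636 to 49932446 counts, and 3 counts were used as the floor. The software was matplotlib 3.10.9, scipy 1.17.1, pandas 2.3.3 and numpy 2.4.6 in Python 3.11.15.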

Additional observations from a re-analysis of the deposited data

How the results depend on the processing

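No paired analysis was possible because all 3 libraries belong to 1 condition. With at least 10 counts required in every library, 17 in place of 31 members were detected, because the threshold is higher. Of the 5 members that varied between libraries, 0 to 5 passed when each library was left out. With any gene above 0 counts in some library tested, 11 of 59 members passed, of which 4 were among the 5, and 25.9% of all genes did. With the edgeR common dispersion, itself estimated from these libraries, added to counting error, 0 passed, against 0.731% of all genes. On the per-kilobase scale the shares of member CPM were 54.1% for H2A, 22.8% for H1, 13.0% for H4, 7.40% for H2B and 2.80% for H3, and 97.4% for Hist1, 1.69% for Hist2 and 0.909% for Hist3. The median of members ending near the stem-loop was 0.120 CPM per kilobase, 0.199 where near meant within 300 bases, and 0.129 to 0.152 when each library was left out. The ratio of the median of members running past the stem-loop to that of members ending near it was 1.52, 0.872 with 300 bases as the limit, 5.30 on the CPM scale and 1.29 to 1.57 when each library was left out. The ratio of variants to members kept its direction but rose from 9.26-fold per kilobase to 27.8-fold on the CPM scale. Of 137 alternatives, 119, this ratio among them, kept the direction of a test, moved a value by less than the spread between libraries or changed a count by at most 1.5 times. For levels averaged over 3 libraries, leaving out 1 library can scarcely move the mean by as much as the spread between them. Such alternatives were therefore bound to be kept, and their part of the tally is no measure of stability. At this depth, 36 members had 3 counts or fewer in at least 1 library, and 15 of them stayed at or under 3 counts in every library.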

Other observations

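Genes listed here as germline histone variants were almost absent, and whether each is confined to the germline was not examined. Of 8 such genes, 5 had no counts, and H1foo and Hils1 had at most 1 count in any library. H3f3c was above the floor, with 14, 9 and 6 counts, or 0.199 ± 0.0745 CPM (SD, n = 3). Windows shared with other genes were not determined for these 8 genes, so whether the reads came from H3f3c itself was not tested.

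Of the members above 3 counts in every library, 14 had fewer than 10 counts in some library and were not tested for variation. Some of these were uneven. Hist1h1b had 19, 5 and 18 counts, Hist1h4h had 4, 4 and 16, and Hist3h2ba had 17, 20 and 7. These genes were chosen after their values were seen.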
